A study of Saccharomyces cerevisiae with 8 samples.

Results

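Budding yeast (Saccharomyces cerevisiae) strains that each lack 1 of 3 genes, DOT1, SWI4 or ARD1, were compared as one group with wild type (wt), to describe what the 3 deletion strains had in common. The series holds 8 samples, and all 8 enter the comparison: the 6 arrays of the dot1, swi4 and ard1 deletions (2 per strain) form one side and the 2 wt arrays the other. Members were all 5449 genes that the array's annotation names with 1 symbol, out of 5814 probe sets, and no measured value was used to choose them. Each sample was total RNA from a culture in rich liquid medium (YPD) at 30 C, taken in mid-log growth at an optical density (OD600) of 0.7, and was hybridised to 1 Affymetrix yeast array. The genotypes are given in the labels as wt, dot1, swi4 and ard1, and the 2 arrays of a genotype are described there as biological replicates. The parental strain, the mating type, the marker used to make each deletion and the number of clones per strain are not stated in these sources. Each deletion is therefore taken here as 1 strain, which the labels do not state. A difference shared by the 3 strains and a feature particular to the wt cultures cannot be told apart.

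Dot1 methylates histone H3 within the body of the nucleosome and takes part in the silencing of telomeres and of the silent mating-type cassettes. Swi4 recognises DNA for SBF, the factor that switches on G1 cyclin and cell wall genes when a cell commits to division. Ard1, also called Naa10, is the catalytic subunit of the NatA complex, which acetylates the amino termini of many newly made proteins. The 3 proteins thus act in different processes. Several broad programmes of yeast gene expression recur in the results. Chaperone genes are switched on by heat shock factor when proteins misfold, the sulfate assimilation pathway is switched on by Met4 when methionine or cysteine runs short, and the amino acid synthesis genes are switched on by Gcn4.

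The deleted genes were examined first. DOT1 had log2 intensities of 4.49 and 4.29 in the dot1 arrays and between 7.49 and 8.09 in the other 6. ARD1 had 5.57 and 5.22 in the ard1 arrays and between 10.41 and 10.83 elsewhere. Both were lowest in the strain named for them, with no overlap. SWI4 was dim on all arrays, at 4.21 and 4.22 in the swi4 arrays and between 4.94 and 5.48 in the others, near the lowest gene mean of 4.02. Each was low in 1 strain, and the pooled change passed the test for none of them, with limma adjusted p of 0.667 for DOT1, 0.691 for SWI4 and 0.637 for ARD1. Of the mating type markers, STE3, the receptor for a-factor that alpha cells make, lay between 11.85 and 13.12 over the 8 arrays. STE2, the receptor for alpha-factor that a cells make, lay between 6.67 and 7.88. Levels of different probe sets cannot be set against each other, so no mating type was read from them. None of the 7 a-specific, 5 alpha-specific or 3 silent cassette genes measured passed the pooled limma test, and 0 of them had an unadjusted p under 0.05. Of the 5 alpha-specific genes 4 differed among the 3 strains in an F test, beside 15% of all genes. The median change of the 5 was -0.55 in ard1, -0.12 in swi4 and -0.04 in dot1.

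Wt replicate 2 stood apart. Its median intensity was 713, against 623 to 644 in the other 7 arrays. Over all genes, wt replicate 2 exceeded wt replicate 1 by a median of 0.14 on the log2 scale, with a standard deviation (SD) of 0.32 between genes, and it had the lowest value in 15 of the 17 ribosomal RNA control probe sets. Replicate 2 minus replicate 1 had medians of 0.02 in dot1, 0.00 in swi4 and 0.03 in ard1. The part of this array in the results below was not tested, and the total number of calls and the counts of genes on one side of both wt arrays are also given without a wt array where that moves them by over 1.5 times.

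Most genes did not pass the pooled test of the deletion arrays against wt, which does not show that they were unchanged. With the 6 deletion arrays taken as 1 group, 44 of 5449 genes rose (0.807%) and 66 fell (1.21%), or 110 in all (2.02%), at a Benjamini-Hochberg adjusted p under 0.05 in limma. Of these, 13 rose and 9 fell by at least 2-fold. Over all 5449 genes, 1017 had an unadjusted p under 0.05 in limma, and 3477 had a negative change. In each of the 110 genes every deletion array lay on the same side of both wt arrays, each strain mean moved the same way, and the change exceeded the difference between the wt arrays. The test sets the change against the spread within the sides and so favours such genes. A lack of overlap in a called gene is therefore no separate support for its call. With the replicate number as a block, 38 rose (0.697%) and 72 fell (1.32%). Without any test, 391 genes (7.18%) had all 6 deletion arrays above both wt arrays and 724 genes (13.3%) had all 6 below. Compared within each replicate number, 558 genes (10.2%) had the 3 deletion arrays above the wt array in both numbers and 1136 (20.8%) below. All 110 called genes are necessarily among them, since their deletion arrays lay on one side of both wt arrays. Without wt replicate 1, 616 genes (11.3%) lay above wt and 2271 (41.7%) below, and without wt replicate 2, 1074 (19.7%) above and 968 (17.8%) below. The number called also depended on the samples and on the error model. Without wt replicate 1 the fit called 24 genes, without wt replicate 2 it called 3 (HSP26, SSA4 and MET14), without the swi4 strain 17, and without swi4 replicate 1 or replicate 2 it called 45. The fit takes the 6 deletion arrays as independent, although they come from 3 strains. With the strain as a random block (estimated correlation 0.429) 13 genes were called: HSP26, SSA4, HIS4, MET14, PCL5, CEM1, YMR230W-A, YDR042C, YAL037C-A, SPS18, CDS1, HNM1 and JLP2. Every other gene said below to have risen or fallen missed the threshold in that fit. Centring each array on its median turned the split to 46 up and 27 down, and quantile normalization turned it to 61 up and 43 down, since these scalings remove the median change of -0.08 over all genes.

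The pooled fit counts the spread among the 3 strains as error, so its calls favour genes that moved by similar amounts in dot1, swi4 and ard1. Of the 110 genes, 5 differed among the 3 strains in an F test that uses no wt array (YMR230W-A, TPO4, NTE1, ARG4 and ARO10), against 816 of all genes (15%), or 1727 (31.7%) with the replicate number as a block. This low count follows from the choice of fit. When the 4 genotypes were each given their own mean, 258 genes (4.73%) were higher and 447 (8.20%) lower in the mean of the 3 strains, 705 in all (12.9%), and 217 of them differed among the strains. TOS6, a cell wall protein gene and known SBF target, shows such a case. It stood at 8.12 and 7.98 in the swi4 arrays and between 12.61 and 12.75 in the other 6, so its pooled change of -1.56 on the log2 scale came from 1 strain.

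**Figure D1:**
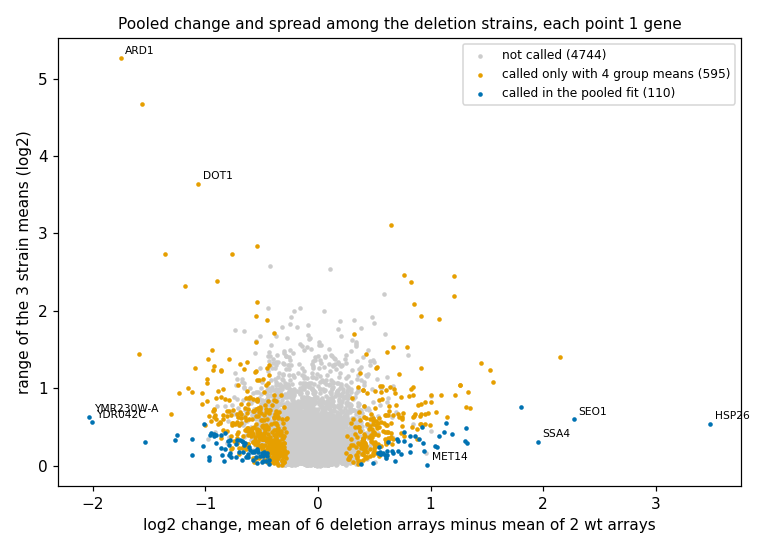
Each point is 1 of the 5449 genes. The horizontal axis is the mean log2 intensity of the 6 deletion arrays minus that of the 2 wt arrays, and the vertical axis is the range of the 3 strain means on the log2 scale. The 110 genes called in the pooled fit lie along the bottom, with a median strain range of 0.21 against 0.30 over all genes, and DOT1 and ARD1 stand far up because each was low in 1 strain.

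Chaperone genes held the largest rise of all. HSP26 encodes a small heat shock chaperone that binds unfolding proteins. It had log2 intensities of 8.75 and 8.26 in wt, 11.87 and 11.67 in dot1 cells, 12.52 and 12.11 in swi4 cells, and 11.88 and 11.89 in ard1 cells. The lowest deletion array was far above the higher wt array, and the pooled rise was 3.48 ± 0.22 (SE, n = 6 and 2 arrays) on the log2 scale, 11.2-fold, with a limma adjusted p of 0.00106. SSA4, the heat-induced cytosolic Hsp70, stood at 10.46 and 10.10 in wt, 12.29 and 12.45 in dot1 cells, 12.42 and 12.14 in swi4 cells, and 12.06 and 12.06 in ard1 cells. The groups did not overlap, and the rise was 1.96 ± 0.15 (SE), 3.88-fold, with a limma adjusted p of 0.00212. The 3 strains each differed from wt by similar amounts, 3.26, 3.81 and 3.38 for HSP26 and 2.09, 2.0 and 1.78 for SSA4 in dot1, swi4 and ard1.

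Other chaperones rose by less. HSP78, the disaggregase of the mitochondrial matrix, lay at 10.19 in both wt arrays and between 10.76 and 11.18 in the deletion arrays, a rise of 0.82 ± 0.11 (SE). The Hsp90 cochaperones AHA1 and CPR6 rose by 0.61 ± 0.08 and 0.61 ± 0.08 (SE), and CPR6 was named after its values were seen. In all, 5 of 26 heat shock chaperone genes measured rose, none fell, and 14 had every deletion array above both wt arrays, beside 0.807% called up and 7.18% above wt over all genes. The median change of the list was 0.27, beside -0.08 over all genes. This list, like those used below, was chosen with earlier results of these data known, so its counts are not independent of them. Members that did not pass had their own pattern of values: SSE2, a nucleotide exchange factor for Hsp70, differed by 0.90 with an adjusted p of 0.0621, and the disaggregase HSP104 by 0.18 with 0.329. The constitutive chaperones SSC1, HSC82 and SSA2 differed by -0.09, -0.08 and -0.04.

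**Figure D2:**
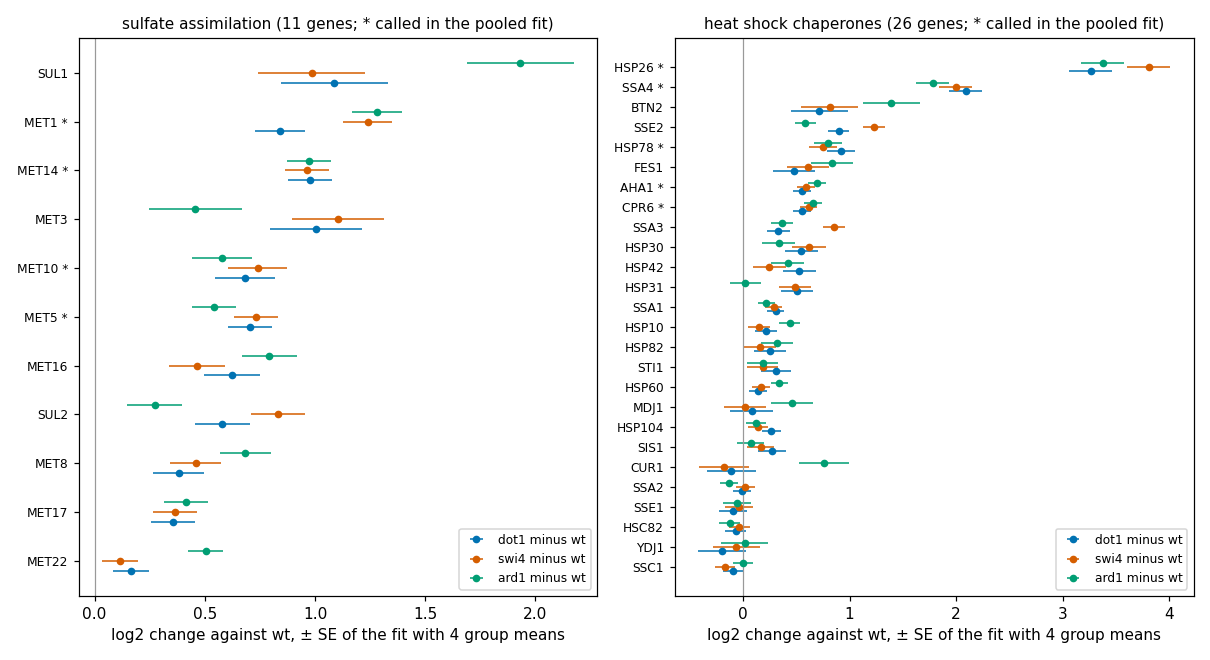
Log2 change against wt of every measured gene of the sulfate assimilation list (11 genes) and of the heat shock chaperone list (26 genes), in the dot1, swi4 and ard1 strains, from the fit with 4 group means. Bars are the SE of that fit, the 3 strains share the 2 wt arrays, and a star marks a gene called in the pooled fit. All 11 sulfate assimilation genes lie to the right of 0 in each strain, while the chaperone list runs from HSP26 above 3 down to values about 0.

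Sulfate assimilation had the highest median change of the 50 gene lists, 0.66 on the log2 scale. Its enzymes take up sulfate, activate it, reduce it to sulfide and join it to a carbon backbone. Of the 11 genes measured, 4 rose, none fell, and 10 had every deletion array above both wt arrays, beside 0.807% and 7.18% over all genes. The list was chosen with earlier results of these data known, so these counts and its rank are a description only. MET14, the kinase that makes the activated sulfate donor, was at 9.11 and 9.29 in wt and then at 10.12 and 10.23 in dot1 cells, 10.20 and 10.12 in swi4 cells, and 10.20 and 10.14 in ard1 cells. The 6 deletion arrays lay within a narrow band above wt, and the rise was 0.97 ± 0.08 (SE) with a limma adjusted p of 0.00289. Its changes in the 3 strains were 0.98, 0.97 and 0.97, a range of 0.01.

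The other members that rose serve the reduction step. MET1 makes siroheme, the cofactor of sulfite reductase, and it stood at 9.31 and 9.04 in wt, 9.99 and 10.04 in dot1 cells, 10.37 and 10.45 in swi4 cells, and 10.5 and 10.41 in ard1 cells. It had no overlap and rose by 1.12 ± 0.16 (SE) with an adjusted p of 0.0155. MET10 and MET5, the subunits of sulfite reductase, rose by 0.67 ± 0.12 and 0.66 ± 0.10 (SE). Among the genes that did not pass, the sulfate permeases SUL1 and SUL2 differed by 1.33 and 0.56 with adjusted p of 0.0905 and 0.153. SUL1 differed by most in ard1 (levels of 7.54 and 7.0, against 5.49 and 5.20 in wt). The ATP sulfurylase MET3 differed by 0.86 with an adjusted p of 0.123, and its second ard1 array, at 10.71, reached the level of wt replicate 1, at 10.71. All 11 genes passed in the fit with 4 group means, in which 4.73% of all genes were higher. The list median was 0.59 among the arrays with replicate number 1 and 0.73 among those with number 2.

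Methionine and cysteine metabolism had 3 rises and no fall among 22 genes, beside 0.807% of all genes that rose and 1.21% that fell. MHT1 makes methionine from S-methylmethionine, and MMP1, its neighbour in the genome, is the permease for that compound. MHT1 stood at 9.05 and 8.37 in wt and between 9.88 and 10.28 in the deletion arrays, a rise of 1.33 ± 0.18 (SE) with a limma adjusted p of 0.0129. MMP1 stood at 11.55 and 11.08 in wt and between 12.00 and 12.42 in the others, a rise of 0.94 ± 0.15. Neither gene had any overlap between the sides. STR3, which converts cystathionine to homocysteine, rose by 1.32 ± 0.26 (SE) with an adjusted p of 0.0435, and with the replicate number as a block this p was 0.0616. The wt arrays differed widely for STR3, at 9.97 and 9.06. The list median of 0.07 was small beside these 3 genes.

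Genes of amino acid synthesis outside the sulfur pathway followed. HIS4, a multifunctional enzyme of histidine synthesis, was at 11.68 and 11.48 in wt, 12.85 and 12.78 in dot1 cells, 12.80 and 12.73 in swi4 cells, and 13.07 and 13.11 in ard1 cells. The groups were well apart, and the rise was 1.31 ± 0.13 (SE), 2.48-fold, with a limma adjusted p of 0.00533. HIS4 was the 1 of 7 histidine genes that rose, beside 0.807% of all genes. All 7 had a positive change (1972 of all 5449 genes did), 6 lay above both wt arrays (7.18% of all genes did), and the list median was 0.59. Of 7 arginine synthesis genes, 1 rose, beside 0.807% of all genes. This was ARG4, argininosuccinate lyase, which rose by 0.92 ± 0.17 (SE) with an adjusted p of 0.0396, or 0.0534 with the replicate block. The list median was 0.54, and ARG1 differed by 1.55 with an adjusted p of 0.0641, from 9.13 and 8.91 in wt to between 9.76 and 11.08.

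In the list of glutamate, serine, glycine and threonine synthesis 3 of 25 genes rose, beside 0.807% of all genes. GLN1, glutamine synthetase, was at 12.92 and 12.80 in wt and between 13.54 and 13.82 in the deletion arrays, a rise of 0.82 ± 0.11 (SE) with a limma adjusted p of 0.0118. GDH1, the glutamate dehydrogenase that uses NADPH, rose by 0.62 ± 0.11. SER1, an enzyme of serine synthesis, rose by 0.71 ± 0.14, and its adjusted p was 0.0432, or 0.0534 with the replicate block. PCL5, the cyclin that directs the kinase Pho85 to the degradation of Gcn4, stood at 10.06 and 10.07 in wt, 11.13 and 11.11 in dot1 cells, 11.13 and 11.30 in swi4 cells, and 10.91 and 11.02 in ard1 cells. No deletion array came near wt, and the rise was 1.04 ± 0.11 (SE) with an adjusted p of 0.00551. The GCN4 transcript itself, whose control is known to lie mainly in translation, differed by -0.05 with an adjusted p of 0.799. Of 9 lysine genes none passed, with a median of 0.37 and 5 members above both wt arrays beside 7.18% of all genes, and 1 passed with the replicate block. At an unadjusted p under 0.05 in limma there were 3, beside 1017 of all 5449 genes. The 12 branched-chain and the 12 aromatic amino acid genes had no call and medians of -0.10 and 0.03, with 4 and 3 genes at an unadjusted p under 0.05.

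**Figure D3:**
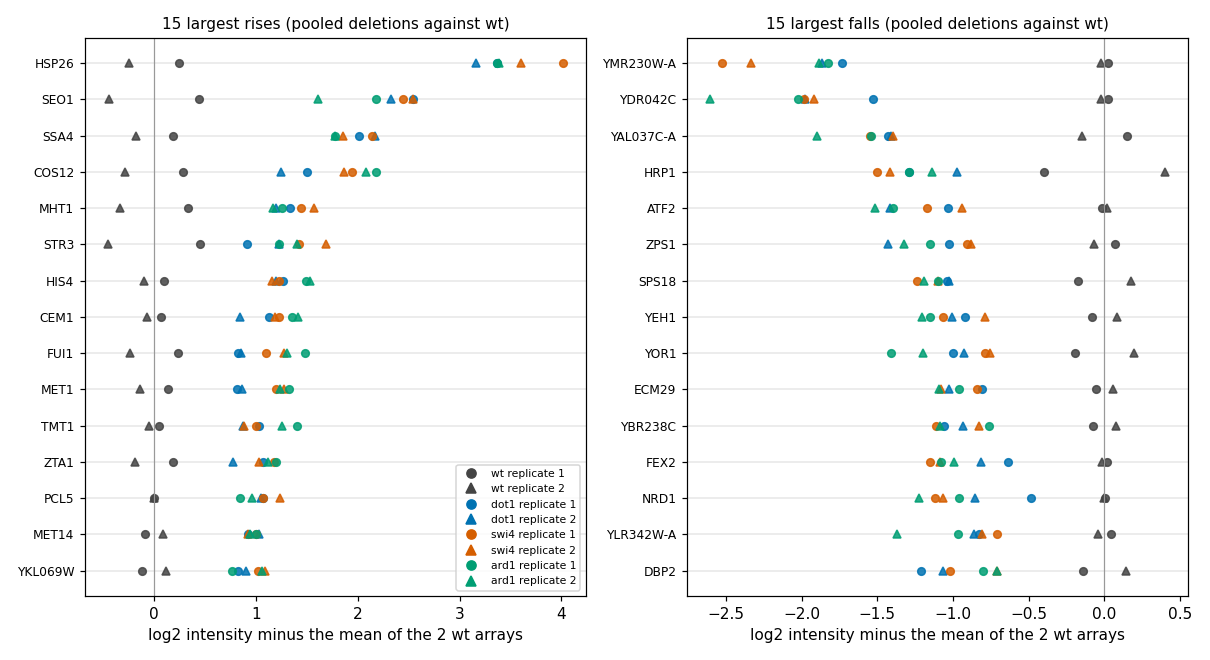
Log2 intensity of each array minus the mean of the 2 wt arrays, for the 15 largest rises (left) and the 15 largest falls (right) in the pooled fit. Colours mark the genotype and shapes the replicate number. In all 30 genes the 6 deletion arrays lie on one side of both wt arrays, and the wt arrays of HRP1, SEO1 and STR3 lie farther apart than those of ATF2, PCL5 or NRD1.

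SEO1, COS12 and FUI1 were among the 15 largest rises. SEO1, a putative permease of the allantoate family, was at 7.86 and 6.97 in wt, 9.96 and 9.74 in dot1 cells, 9.87 and 9.96 in swi4 cells, and 9.60 and 9.03 in ard1 cells. The wt arrays lay apart, but all deletion arrays were higher than both, and the rise was 2.28 ± 0.30 (SE), 4.84-fold, with a limma adjusted p of 0.0118. COS12, of the COS family of subtelomeric membrane proteins, was at 8.54 and 7.96 in wt, 9.75 and 9.50 in dot1 cells, 10.19 and 10.11 in swi4 cells, and 10.43 and 10.33 in ard1 cells. It rose by 1.80 ± 0.26 (SE) with an adjusted p of 0.0155. COS12 was the 1 of 9 COS genes that passed, beside 2.02% of all genes, and the list median was 0.01. FUI1, the uridine permease, rose by 1.14 ± 0.20 (SE), with strain changes of 0.84, 1.19 and 1.39 in dot1, swi4 and ard1. It was the 1 call among 20 purine synthesis and nucleobase uptake genes, beside 2.02% of all genes.

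The remaining large rises belonged to various metabolic roles. CEM1, an enzyme of mitochondrial fatty acid synthesis, rose by 1.19 ± 0.15 (SE), from 7.08 and 6.94 in wt to between 7.85 and 8.43. TMT1, a methyltransferase that acts on trans-aconitate, rose by 1.07 ± 0.15, and ZTA1, a quinone reductase, by 1.06 ± 0.14. YKL069W rose by 0.94 ± 0.12. PRM5, a pheromone-regulated membrane protein that also responds to cell wall stress, rose by 0.55 ± 0.10. It was the 1 call among 27 pheromone response genes (2.02% of all genes were called), whose median was -0.28. Among the smaller rises, named after their values were seen, were GRX1, a glutaredoxin (0.56 ± 0.09), and GLO2, a glyoxalase (0.58 ± 0.11). MMM1 and MDM36, which act in mitochondrial shape and distribution, rose by 0.54 ± 0.10 and 0.60 ± 0.09, and with the replicate block the adjusted p of MMM1 was 0.0534.

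The largest falls were in small or uncharacterised open reading frames. YMR230W-A was at 9.36 and 9.32 in wt, 7.61 and 7.48 in dot1 cells, 6.81 and 7.01 in swi4 cells, and 7.52 and 7.46 in ard1 cells. It was lowest in swi4 and in no deletion array near wt, and it fell by 2.03 on the log2 scale (SE 0.21, 4.08-fold) with a limma adjusted p of 0.00589. YDR042C was at 9.16 and 9.12 in wt, 7.62 and 7.16 in dot1 cells, 7.16 and 7.23 in swi4 cells, and 7.12 and 6.54 in ard1 cells, a fall of 4.02-fold with an adjusted p of 0.00854. YAL037C-A was at 8.21 and 7.92 in wt, 6.63 and 6.65 in dot1 cells, 6.51 and 6.66 in swi4 cells, and 6.52 and 6.16 in ard1 cells, a fall of 2.91-fold with an adjusted p of 0.00533. The wt arrays were above every deletion array for each of the 3. Of the 110 genes called, 14 are known in the annotation by their systematic name alone, 2 of which rose and 12 fell. Such names were not counted over all genes, so no excess can be read from these numbers.

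HRP1, NRD1 and DBP2, which act on RNA, were among the 15 largest falls. HRP1, an RNA-binding subunit of the 3′ end cleavage machinery, was at 11.52 and 12.32 in wt, 10.63 and 10.94 in dot1 cells, 10.42 and 10.5 in swi4 cells, and 10.63 and 10.78 in ard1 cells. The wt arrays differed by 0.80, yet the lower of them was above every deletion array, and HRP1 fell by 1.27 (SE 0.21) with a limma adjusted p of 0.0278. NRD1, which ends the transcription of short and noncoding RNAs, fell by 0.95 (SE 0.18), from 12.12 in both wt arrays to between 10.90 and 11.64. Its adjusted p was 0.0400, or 0.0512 with the replicate block. NAB3, the partner of NRD1, fell by 0.57 (SE 0.10), and the RNA helicase DBP2 by 0.92 (SE 0.16). With these 4 in view, a list of 19 genes for mRNA 3′ end formation and Nrd1-dependent termination was drawn up. Since HRP1, NRD1, NAB3 and DBP2 are its 4 falls, the count supports nothing beyond them. Its median was -0.21, and it was -0.08 among arrays with number 1 and -0.41 among those with number 2.

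ATF2 and YEH1 were also among the 15 largest falls. ATF2, an acetyltransferase that acts on alcohols and sterols, was at 11.59 and 11.62 in wt, 10.57 and 10.19 in dot1 cells, 10.43 and 10.66 in swi4 cells, and 10.21 and 10.09 in ard1 cells. It had no overlap and fell by 1.25 (SE 0.16), 2.37-fold, with a limma adjusted p of 0.0118. YEH1, a steryl ester hydrolase, fell by 1.02 (SE 0.12), from 9.97 and 10.13 to between 8.84 and 9.26.

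Phospholipid genes were listed after their values were seen, and 6 of 30 fell while none rose, beside 1.21% of all genes that fell. As these falls led to the list, its counts support nothing beyond them. CDS1 makes CDP-diacylglycerol, from which the phospholipids branch, and it was at 12.38 and 12.55 in wt and between 11.54 and 11.71 in the deletion arrays. It fell by 0.84 (SE 0.09) with an adjusted p of 0.00551. HNM1, the choline transporter, and ITR1, the inositol transporter, fell by 0.79 (SE 0.08) and 0.78 (SE 0.11). CHO1 makes phosphatidylserine, and PSD1 converts it to phosphatidylethanolamine. They fell by 0.57 (SE 0.09) and 0.78 (SE 0.13). NTE1, which breaks down phosphatidylcholine, fell by 0.86 (SE 0.14) and by most in ard1, at -1.10 against -0.76 in dot1 and -0.71 in swi4. Of the list, 12 genes lay below both wt arrays (13.3% of all genes did), or 20 without wt replicate 1 (41.7% of all genes did), and the median was -0.35. INO1, inositol-3-phosphate synthase, differed by -0.91 but overlapped between the sides, from 9.91 and 9.33 in wt to between 8.06 and 9.43, with an adjusted p of 0.198. OPI3, which methylates phosphatidylethanolamine, differed by -0.53 with an adjusted p of 0.0523.

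YOR1 and FEX2, which encode transporters, were among the 15 largest falls too. YOR1, an ABC transporter of the plasma membrane, fell by 1.01 (SE 0.19) with a limma adjusted p of 0.0396, from 11.45 and 11.83 in wt to between 10.23 and 10.88. FEX2, one of a pair of nearly identical fluoride exporters, fell by 0.96 (SE 0.14). FEX1, the other copy, fell by 0.91 (SE 0.12). The probe set of FEX1 is marked as shared and that of FEX2 is not, so the fall of FEX1 cannot be assigned to that copy alone. The polyamine exporters TPO4, TPO1 and TPO5 fell by 0.90, 0.67 and 0.47, and SPE4, spermine synthase, by 0.62. These 4 genes led to a list of 13 polyamine genes drawn up afterwards, so its 4 falls (1.21% of all genes fell) are not independent of that choice. With the replicate block 3 of them passed, and TPO1 had an adjusted p of 0.0584.

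Zinc-responsive genes had 2 falls among 14, beside 1.21% of all genes that fell. ZPS1, a cell surface protein induced when zinc is scarce, was at 11.39 and 11.24 in wt, 10.28 and 9.89 in dot1 cells, 10.41 and 10.43 in swi4 cells, and 10.16 and 9.99 in ard1 cells. It had no overlap and fell by 1.12 (SE 0.16) with a limma adjusted p of 0.0140. IZH2, a membrane protein also regulated by zinc, fell by 0.80 (SE 0.15) with an adjusted p of 0.0401, or 0.0527 with the replicate block. ZRT1, the high-affinity zinc transporter, differed by -1.03 with an adjusted p of 0.0895, and its strain changes were -0.53, -1.33 and -1.22 in dot1, swi4 and ard1. ZAP1, the activator of these genes, differed by 0.04. The list median was -0.21, with 5 genes below both wt arrays beside 13.3% of all genes.

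The other falls of this size were scattered over functions. SPS18, named for its induction in sporulation, fell by 1.12 (SE 0.11) with a limma adjusted p of 0.00533, and its strain changes of -1.03, -1.17 and -1.15 lay close together. ECM29, which associates with the proteasome, fell by 0.97 (SE 0.10), from 9.64 and 9.75 in wt to between 8.60 and 8.89. YBR238C fell by 0.96 (SE 0.12) and YLR342W-A by 0.92 (SE 0.16). CHS2, the chitin synthase of the primary septum, fell by 0.58 (SE 0.11). It was the 1 call among 37 cell wall genes and among 17 genes of the CLB2 cluster, which peaks in mitosis, beside 2.02% of all genes. With the replicate block 2 CLB2 cluster genes passed. The median of the CLB2 cluster was -0.45, and its members had a median of 0.45 for wt replicate 2 minus wt replicate 1. Another 2 lists were drawn up after values were seen. Of 8 heme synthesis genes, HEM13 and HEM3 fell by 0.65 and 0.54, and of 15 karyopherins, NMD5 and CRM1 fell by 0.58 and 0.44. Among all genes 1.21% fell.

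The 50 gene lists held 1102 of the 5449 genes. Of the 110 called genes 24 belonged to a list, a share near that of all genes, and 86 to none. No gene was called in 37 lists. Among those 37, the growth-related lists had low medians that moved with the wt arrays. Over all 5449 genes, 1017 had an unadjusted p under 0.05 in limma and 3477 had a negative change. Of 68 ribosome biogenesis genes none passed in limma, 15 had an unadjusted p under 0.05, 66 had a negative change, and the median was -0.42. For these genes wt replicate 2 exceeded wt replicate 1 by a median of 0.60, more than the pooled change. The list median was -0.26 among arrays with number 1 and -0.58 among those with number 2, and -0.71 in dot1, -0.59 in swi4 and -0.06 in ard1. For RRP5, which is needed early in ribosome assembly, the wt arrays were at 10.43 and 11.63 and the deletion arrays between 9.91 and 11.18. All 6 deletion arrays lay below both wt arrays for 11 of the 68 genes, near the 13.3% of all genes. Without wt replicate 1 they lay below wt for 58, beside 41.7% of all genes.

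Other lists of this kind behaved alike in their counts, to be read beside 1017 unadjusted and 3477 negative of all 5449 genes. None of 20 genes for RNA polymerase I and III subunits passed (7 at an unadjusted p under 0.05), and all 20 had a negative change with a median of -0.39, beside 0.57 between the wt arrays. With the replicate block 1 of them passed. None of 33 proteasome genes passed (11 unadjusted), with 32 negative, a median of -0.23 and 0.37 between the wt arrays. Of 32 translation factors none passed (5 unadjusted), with a median of -0.21. By contrast the 128 cytosolic ribosomal protein genes had a median of 0.06, and 32 of them lay above both wt arrays (7.18% of all genes did) without a call, with 12 at an unadjusted p under 0.05. Without wt replicate 2, 103 lay above wt (19.7% of all genes did). Without wt replicate 1, 38 lay above and 26 below, beside 11.3% and 41.7% of all genes. The part of wt replicate 2 in these medians was not tested.

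Ergosterol synthesis had no call among 27 genes in limma and 9 at an unadjusted p under 0.05, yet 26 had a negative change and 16 had every deletion array below both wt arrays, against 13.3% of all genes. Over all 5449 genes, 1017 had such a p and 3477 had a negative change. Without wt replicate 1, 24 ergosterol genes lay below wt, beside 41.7% of all genes. The median was -0.25, or -0.17 after centring, and the wt arrays differed by a median of 0.06 in this list. HMG1, an HMG-CoA reductase early in the pathway, was at 12.21 and 12.30 in wt, 11.82 and 11.68 in dot1 cells, 11.83 and 11.85 in swi4 cells, and 11.59 and 11.52 in ard1 cells. It had no overlap, differed by -0.54 and missed the threshold with a limma adjusted p of 0.0523. ERG7, lanosterol synthase, differed by -0.51 with 0.109.

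**Figure D4:**
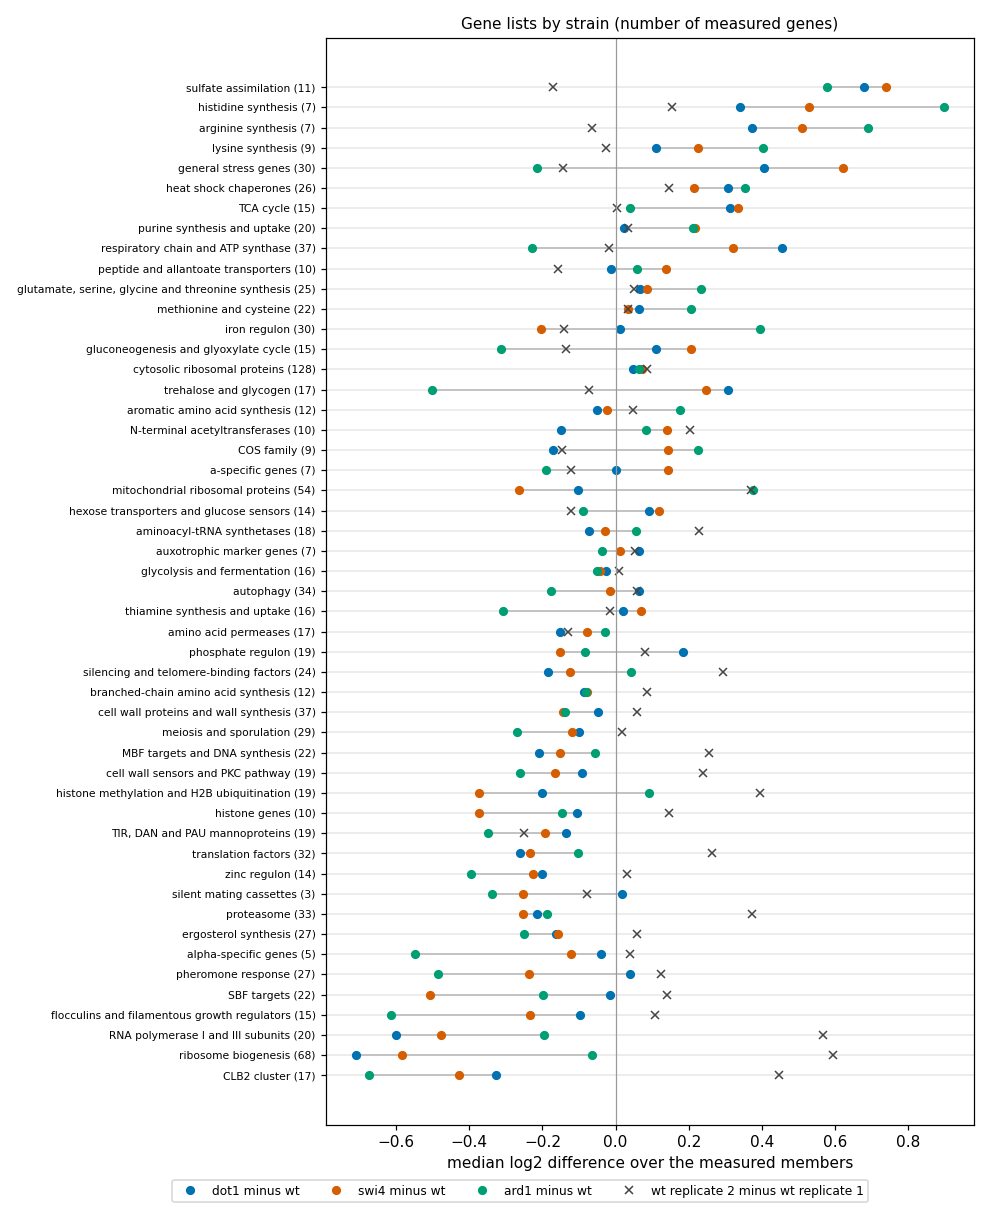
Median log2 difference over the measured members of each of the 50 gene lists, ordered by the median pooled change of the list. Coloured points are the dot1, swi4 and ard1 strains minus wt, which share the 2 wt arrays, and crosses are wt replicate 2 minus wt replicate 1. The 3 strains lie close together for sulfate assimilation, at 0.68, 0.74 and 0.58, and far apart for general stress genes, at 0.41, 0.62 and -0.22.

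In some lists many genes differed among the strains. The pooled fit counts such differences as error, so few pooled calls follow from its construction there. The 30 general stress genes outside the chaperones had medians of 0.41 in dot1, 0.62 in swi4 and -0.22 in ard1. No member passed the pooled limma test, 3 had an unadjusted p under 0.05, 7 were higher with 4 group means (4.73% of all genes were), and 21 of the 30 differed among the strains in the F test, against 15% of all genes. Respiratory chain and ATP synthase genes had medians of 0.46, 0.32 and -0.23, with 27 of 37 different among the strains and no pooled call (2 unadjusted, 4 higher with 4 group means). Of 17 trehalose and glycogen genes, 14 differed among the strains and none passed the pooled test (1 unadjusted), with medians of 0.31, 0.25 and -0.50. For mitochondrial ribosomal proteins the order was another, -0.10 in dot1, -0.27 in swi4 and 0.38 in ard1, with 28 of 54 different and 0 at an unadjusted p under 0.05 in the pooled fit. Glycolysis genes had neither kind of call, 0 of 16 in both tests (1 at an unadjusted p under 0.05 in the pooled one), and a median of -0.03.

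Probe sets that name no yeast gene were fitted separately over all 5814 probe sets. Among the 47 reporter probe sets, which the array carries for sequences used as markers or tags, 1 was at 4.60 and 4.26 in wt, close to the lowest levels on the array, and between 14.38 and 14.47 in all 6 deletion arrays. The measured difference was 9.99 ± 0.10 (SE) on the log2 scale with a limma adjusted p of 2.68e-10, and it is a lower bound because the wt signal lay at the dim end of the array. This separates the 6 deletion arrays from the wt arrays without using any yeast gene. The tables used here give the sequence it detects only as a code in the probe set's identifier and do not name it. In all, 4 reporter probe sets rose and none fell, and 6 had every deletion array above both wt arrays. Among the 5498 gene probe sets in the same fit, 44 rose, 67 fell and 397 had every deletion array above. The 3 other reporters that passed differed by 1.07, 1.35 and 1.31, and those at 1.07 and 1.35 carry the same sequence code.

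**Figure D5:**
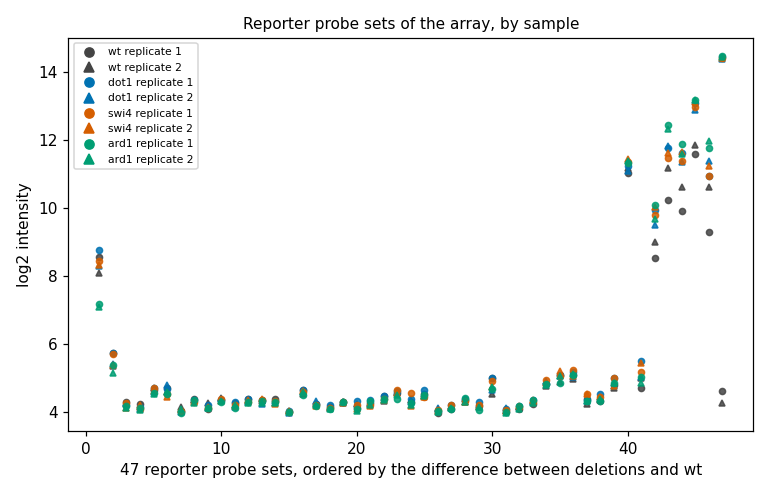
Log2 intensity of the 47 reporter probe sets on each of the 8 arrays, ordered from left to right by the difference between the deletion arrays and wt. The last probe set lies at 4.60 and 4.26 in wt and between 14.38 and 14.47 in the 6 deletion arrays, and the 5 before it have both wt arrays below the deletion arrays by smaller amounts.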

How the data were processed

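The deposited values are intensities per probe set on a linear scale, made by the authors with RMA per the submitters' processing notes, which give no version or settings. RMA corrects background and equalises arrays before it summarises probes, so a shift of all genes can be reduced, and the signal above background is no longer visible. The 8 arrays were used, and their number limits the precision. Log2 was taken before every test.

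Of 5814 probe sets, 98 served as controls or reporters, 218 were unnamed in the annotation used and 0 carried several symbols. The other 5498 gave 5449 genes, and 12 symbols were updated from an R64 gene table that holds all of them. The brightest probe set stood for each of 47 genes with several. There were 117 genes with a probe set shared between transcripts, 2 of them called (FEX1 and YEL076C).

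The main test was limma 3.58.1 in R 4.3.3 (lmFit and eBayes, two-sided), with 6 deletion arrays against 2 wt arrays, 6 residual degrees of freedom and 2.26 from the prior. An adjusted p is Benjamini-Hochberg over all 5449 genes with a threshold of 0.05, "rose" and "fell" are used of genes past it, and errors are SE. The strains were compared with an F test in a fit with 4 group means. An exact two-sided permutation test of 1 gene, with the smaller tail doubled, cannot go below 0.0714 over the 28 splits of these groups. The fits were tried on simulated data with independent noise on each array. That trial cannot show how spread shared within a strain or a replicate number moves the calls.

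Replicate numbers come from the labels, and nothing there says what a number shares. Replicate 2 minus replicate 1 correlated between each 2 genotypes over 5449 genes (0.351 to 0.754), so the numbers were taken to pair the samples, and a fit with the number as a block was run.

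Named genes were the 15 largest rises and falls, up to 4 called members of each list, the 5 called rises and 5 falls with the most even and the 5 called genes with the widest changes over strains, and the deleted genes. Other called genes were named after their values were seen. The lists and members were chosen with earlier results of these data known, and 5 lists were added after the values. Promoter motifs were not analysed here. The alternatives were other scalings, models and filters, and leaving out arrays or strains.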

Additional observations from a re-analysis of the deposited data

Results flagged for a closer look

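Of 45 named genes tested for an array far from the others among the 6 deletion arrays, 1 met the criterion, where chance alone gives about 1 in 20. YAL037C-A was at 6.16 in ard1 replicate 2, and the other 5 deletion arrays lay at 6.51 to 6.66, which leaves its fall in every array.

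Probe sets outside the genes gave 6 signals above wt. For 1 reporter probe set the deletion arrays exceeded wt by 9.99 on the log2 scale, a lower bound because the wt signal was dim. A further 3 reporters exceeded wt by 1.35, 1.31 and 1.07, and those at 1.35 and 1.07 carry the same sequence code in their identifiers. Among the 218 probe sets unnamed in the annotation used, 2 exceeded wt, by 1.31 and 1.02.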

How the results depend on the processing

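The wt side has 2 arrays, and its counts move with each of them. Leaving out 1 array at a time gave 3 to 117 genes called (3 to 58 up, 0 to 63 down) and 3 to 28 called list members, lowest without wt replicate 2, where 562 genes had an unadjusted p under 0.05 in limma. It gave 24 genes without wt replicate 1, 45 without swi4 replicate 1 or replicate 2, and 71 and 63 without ard1 replicates 1 and 2. Over the same omissions the F test called 77 to 1305 genes, 400 to 1074 genes had the deletion arrays above wt and 750 to 2271 below. With 1 wt array left, it is assumed to vary like the deletion arrays. HSP26, SSA4 and MET14 were called in all 8 of these fits.

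Against the 110 genes called (44 up, 66 down), array centring gave 73 (27 down) and quantile normalization 43 down. The strain as a random block gave 13 (6 up, 7 down), and 32 of the 45 genes named by rule were no longer called. Those 45 include DOT1, SWI4 and ARD1, which the main fit did not call either. An intensity trend gave 178 (69 up, 109 down) and array weights 55 (25 up, 30 down). Because it takes strain differences out of the error, the fit with 4 group means gave 705 (258 up, 447 down). Without the swi4 strain 17 were called (9 up, 8 down), and without the ard1 strain 159 (73 up). The causes of the other shifts were not tested. Members of the lists called, 24 in the main fit, were 182 with 4 group means, 4 with the strain as a random block, 59 with the trend, 14 with array weights, 8 without swi4 and 39 without ard1. The F test called 1966 genes with array weights. Genes with the deletion arrays above both wt arrays were 592 without dot1 and 656 without ard1, and those below were 454 after centring, 1106 without dot1 and 1123 without ard1.

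With the replicate block 110 genes were called, 93 of them shared with the fit without it, and the F test called 1727 in place of 816. Among the called genes named in the text the block ended the calls of STR3, ARG4, SER1, IZH2, NRD1, MMM1, TPO1, ARO10 and BLM10 and no other, and among the 50 lists it moved by over 1.5 times the counts given beside those lists in the report. The pooled change of DOT1 was 0.0652 without the dot1 strain and that of SWI4 was 0.0199 without the swi4 strain, so both turned positive once the deletion itself was left out. The array number, not a known signal over background, sets the precision here.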

Other observations

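Smaller calls outside the groups described above, named after their values were seen, included further metabolic and growth genes. Of the rises, GPM2, a homologue of phosphoglycerate mutase, rose by 0.74 ± 0.11 (SE), CLD1, a cardiolipin-specific phospholipase, by 0.77 ± 0.12, and ARO10, a decarboxylase in amino acid breakdown, by 0.77 ± 0.15. ARO10 differed among the strains, at 1.04 in dot1, 0.61 in swi4 and 0.65 in ard1. Of the falls, AAC3, an ADP/ATP carrier of mitochondria, fell by 0.86 (SE 0.12), CYB5, cytochrome b5, by 0.73 (SE 0.10), and RLI1, which acts in ribosome recycling, by 0.67 (SE 0.12). SCH9, a kinase that links nutrients to growth, fell by 0.54 (SE 0.09), and BLM10, a proteasome activator, by 0.67 (SE 0.13). With the replicate number as a block the adjusted p was 0.0642 for ARO10 and 0.0584 for BLM10. All p are limma adjusted p under the threshold of 0.05, from 0.0137 for CYB5 to 0.0480 for ARO10.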
